A study of Homo sapiens with 6 samples.

Results

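Keratins are the intermediate filament proteins of epithelial cells, and 10 keratin genes that mark simple and basal epithelium are described here in a thyroid carcinoma line under a hairpin against HHEX. They are KRT7, KRT8, KRT18 and KRT19, the keratins of simple and glandular epithelium, KRT5, KRT14, KRT15 and KRT17, the keratins of basal cells and of stressed skin, KRT80, a keratin found in many epithelia, and KRT81, a keratin of the hair shaft. They were taken by their symbols, without a threshold on measured values but with earlier results of these data known. The set makes up 10 of the 58735 named genes of the deposited table. RNA was sequenced from the established human line 8505C, derived from an anaplastic thyroid carcinoma, in 3 libraries labelled HHEX shRNA (genotype HHEX KD) and 3 labelled CTRL shRNA (genotype wild-type). Cells of both groups were otherwise untreated and were plated in wells for 24 hours before RNA isolation, per the labels. They come from a single line, and the labels name 1 hairpin condition per group without stating whether the cells are a pool or a clone. HHEX encodes a homeobox transcription factor of thyroid, liver and blood development.

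A keratin filament is built from pairs of a type I and a type II keratin. KRT14, KRT15, KRT17, KRT18 and KRT19 are type I, and KRT5, KRT7, KRT8, KRT80 and KRT81 are type II. KRT8 with KRT18 forms the basic network of simple epithelium, to which glandular cells, thyroid follicular cells among them, add KRT7 and KRT19. KRT5 with KRT14 forms the network of the basal layer of stratified epithelium, and KRT15 marks basal cells and the hair follicle bulge. KRT17 is made in skin appendages and is induced in wounded or inflamed skin and in many carcinomas, usually together with KRT6 and KRT16.

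KRT17, KRT14 and KRT16 are neighbouring type I genes on chromosome 17 with closely related coding sequences, so it matters for what follows whether reads can be told apart. The longest run of coding bases that KRT17 shares with KRT14 is 59 bases long, lies in exon 4 of both genes, and is given first. The second sequence is the longest run it shares with KRT16, of 61 bases in exon 6 of both. All sequences are from GENCODE release 29 (GRCh38), minus strand, written 5′ to 3′.

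KRT17 chr17:41621609-41621667 and KRT14 chr17:41583776-41583834: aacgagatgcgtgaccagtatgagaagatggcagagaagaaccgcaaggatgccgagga
KRT17 chr17:41620671-41620731 and KRT16 chr17:41610343-41610403: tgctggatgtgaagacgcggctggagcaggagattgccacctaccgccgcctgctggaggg

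Towards the end of the coding sequence the 3 genes part. The last 60 coding bases are given next, with capitals where KRT14 or KRT16 differs from KRT17 at the same place counted back from the stop codon. KRT14 differs at 16 of the 60 bases and KRT16 at 43. The bases were set side by side without alignment, so the 43 of KRT16 is no count of substitutions.

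KRT17 chr17:41619594-41619653: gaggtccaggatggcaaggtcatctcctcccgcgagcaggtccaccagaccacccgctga
KRT14 chr17:41582435-41582494: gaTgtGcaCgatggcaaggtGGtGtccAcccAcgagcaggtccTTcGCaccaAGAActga
KRT16 chr17:41609935-41609994: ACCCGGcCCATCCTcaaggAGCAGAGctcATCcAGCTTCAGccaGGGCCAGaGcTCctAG

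Of all 100-base windows in the coding sequence of KRT17, 0.417% occur exactly, on either strand, in a transcript of another gene. Of all 50-base windows 17.1% do, mostly in the pseudogene KRT17P3. For KRT14 the shares are 7.05% and 24.7%, with KRT16 as the most frequent match. KRT18 has 20.4% of its 100-base windows in common with KRT8 alone, and KRT7 has 9.69% in common with KRT7-AS alone. KRT8 and KRT7-AS overlap these genes on the opposite strand, so the matches concern strand rather than related sequence elsewhere. KRT8 shares 8.35% of its 100-base windows, most often with the pseudogene KRT8P3. KRT80, KRT15 and KRT19 have 0% at that length, whereas KRT81 shares 39.1% of its windows with KRT86 and other genes. Neither the read length, the strand of reads nor the handling of reads with several matches is stated. Values of KRT81, and to a lesser degree of KRT18, KRT7, KRT8 and KRT14, are therefore uncertain. With reads near 50 bases this also holds for KRT17, whose 17.1% of shared windows, with 6 other genes, exceeds the 13.5% of KRT7.

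Total counts over named genes ran from 14052770 to 15067566 in the libraries labelled HHEX shRNA and from 13333245 to 15144176 in the controls. HHEX itself stood at 14.8, 7.93 and 7.12 CPM (counts scaled by TMM-adjusted library size) in the libraries labelled KD1, KD2 and KD3, against 12.6, 12.8 and 12 CPM in control1, control2 and control3. The target therefore goes against the label in KD1, and by edgeR's quasi-likelihood test the groups did not differ past the threshold (log2 fold change −0.33, SE 0.28, Benjamini-Hochberg adjusted p = 0.527). What follows compares libraries by label and cannot tell which keratins depend on HHEX. The libraries also differ within the HHEX shRNA group: across the 14280 tested genes, log2 CPM of KD1 and KD2 correlated at 0.989, KD3 with these at 0.955 and 0.956, and KD3 with the controls at 0.971 to 0.977. Values are therefore given per library throughout. The labels call the libraries biological replicates without naming separate cultures, and p-values measure only the spread between these libraries, which may be technical. Sample titles place 2 of the 3 libraries per group under a common leading number, so these may share a source. Which columns they are cannot be told, and the fit treats the 3 libraries of a group as independent.

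Of the 10 keratins, 7 had enough counts to be tested. KRT17 fell in the libraries labelled HHEX shRNA, and it was the only keratin to pass edgeR's test among these 7. Over all 14280 tested genes 26 passed, or 0.182%, of which 11 were lower, or 0.0770%. The 10 were chosen with earlier results of these data known, so the call of KRT17 beside these shares is no independent support. The medians were −0.01 on the log2 scale over all tested genes, 0.48 over the 3 tested simple keratins and −0.36 over the 3 tested basal keratins. The keratin medians are the values of KRT8 and KRT15, neither of which passed. Simple keratins ran from −0.08 to 0.61 and basal keratins from −1.77 to 0.28, so the medians show no shift of either class. KRT7 and KRT80 lay above every control in all 3 libraries labelled HHEX shRNA, and KRT17 lay below every control. Such separation of the groups was seen in 24.9% of all tested genes, with all HHEX shRNA libraries above in 11.7% and all below in 13.3%.

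**Figure D1:**
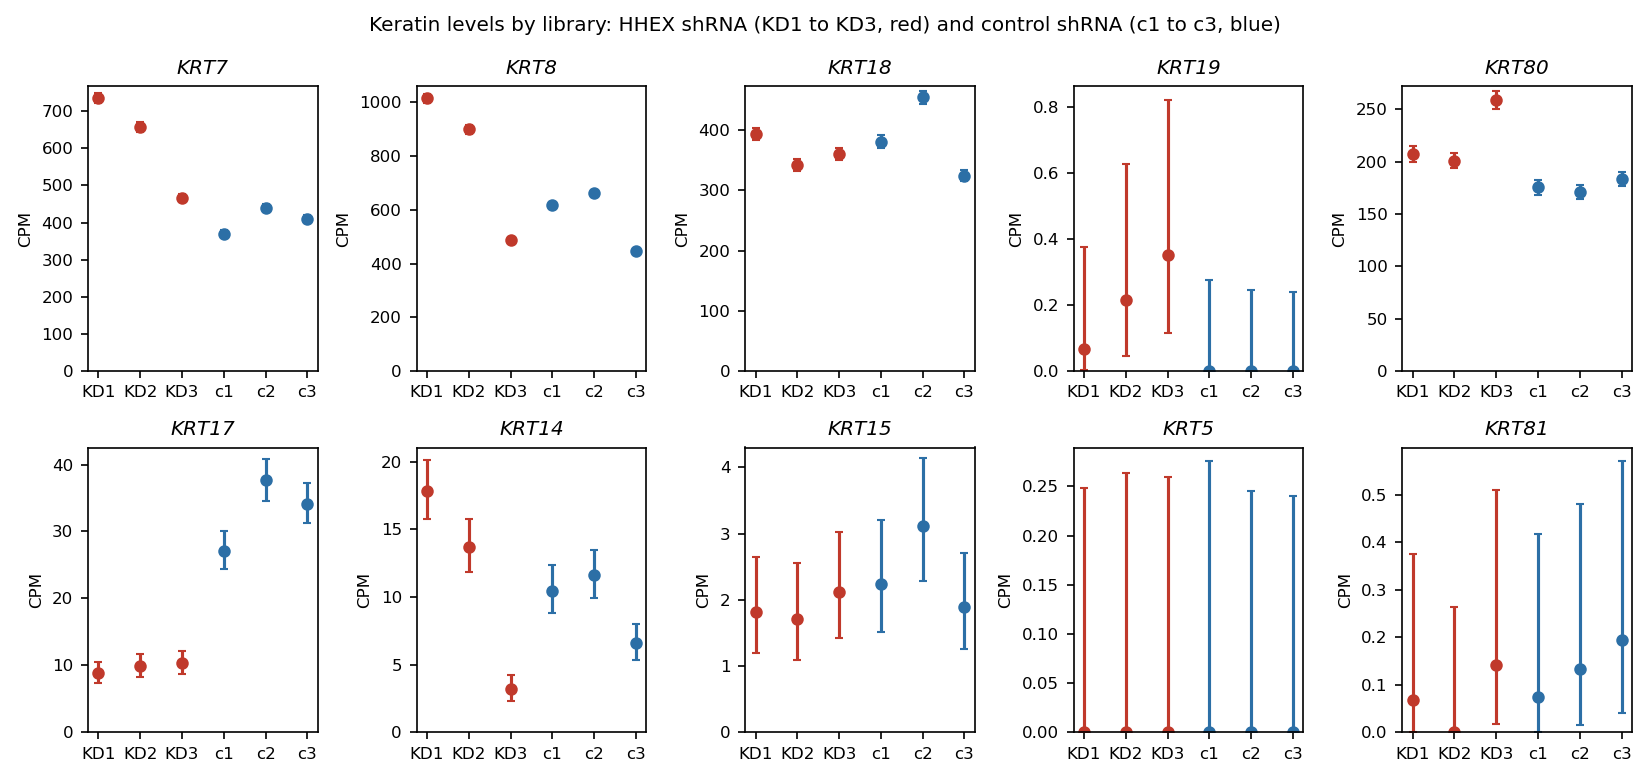
Levels of the 10 keratins in each library, in CPM on a linear axis from 0, with HHEX shRNA libraries KD1 to KD3 in red and control libraries (c1 to c3) in blue. Bars are exact 95% Poisson intervals, which cover counting error only. KRT17 lies between 8.83 and 10.3 CPM in the HHEX shRNA libraries and between 27.1 and 37.6 CPM in the controls, while KRT14 spans 3.17 to 17.9 CPM in the HHEX shRNA libraries alone.

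KRT17 (ENSG00000128422, chromosome 17, 41619441 to 41624842, minus strand, GRCh38) had 131, 138 and 146 counts in KD1, KD2 and KD3, against 363, 567 and 525 in control1, control2 and control3. Scaled to library size these are 8.83, 9.86 and 10.3 CPM in the HHEX shRNA libraries, against 27.1, 37.6 and 34.2 CPM in the controls. All 3 libraries labelled HHEX shRNA are low and close to each other, and the groups lie far apart. The means were 9.66 ± 0.749 CPM in the HHEX shRNA group and 33.0 ± 5.35 CPM in the control group (SD, n = 3 each), so that 29.3% of the control level was left. KRT17 fell by 1.77 on the log2 scale (SE 0.18, 95% confidence interval −2.17 to −1.37, edgeR adjusted p = 0.0169).

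Each library shows the same direction. Against the control mean KRT17 lay at −1.87 in KD1, −1.71 in KD2 and −1.65 in KD3 on the log2 scale, so that KD3, which resembles the controls in many other genes, stood with the others here. KD1, where HHEX was not lower, had the lowest KRT17 of the 6 libraries. Without KD1 the log2 fold change was −1.71, and edgeR's adjusted p was 0.0702. Without KD2, control1, control2 or control3 it was −1.78, −1.87, −1.65 and −1.75, with edgeR adjusted p = 0.0657, 0.0797, 0.106 and 0.158, above the threshold of 0.05 in each case. Without KD3 it was −1.80 with an edgeR adjusted p = 1.41e-05, where 31.6% of all genes tested passed, 15.1% lower and 16.5% higher. In bulk RNA, fewer cells that make KRT17 and less KRT17 RNA per cell cannot be told apart.

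The 8 rows of KRT17 pseudogenes held 22 counts over all 6 libraries. They came to 10.7%, 2.17% and 0% of the KRT17 count in KD1, KD2 and KD3, and to 0.275%, 0.353% and 0.381% in control1, control2 and control3.

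KRT14 (ENSG00000186847, chromosome 17, 41582279 to 41586921, minus strand), the closest relative of KRT17 among the 10, did not follow it. It had 17.9, 13.7 and 3.17 CPM in KD1, KD2 and KD3, against 10.5, 11.6 and 6.57 CPM in the controls. KD1 and KD2 lay above every control and KD3 below every control, so the HHEX shRNA libraries enclose the controls. The means of 11.6 ± 7.57 CPM in the HHEX shRNA group and 9.55 ± 2.64 CPM in the control group (SD, n = 3 each) gave a difference of 0.28 on the log2 scale (SE 0.55, 95% confidence interval −1 to 1.56, edgeR adjusted p = 0.797). Without KD3 the log2 fold change was 0.75 and passed (edgeR adjusted p = 0.0286), as did 31.6% of all genes then tested. Without KD1 it was −0.18 (edgeR adjusted p = 0.915). The direction of KRT14 therefore rests on which library is included.

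KRT15 (ENSG00000171346, chromosome 17, 41513743 to 41522529, minus strand), a keratin of basal cells and the hair bulge, was low throughout. It had 1.82, 1.71 and 2.11 CPM in the HHEX shRNA libraries, against 2.24, 3.12 and 1.89 CPM in the controls. The groups overlap through control3, and the log2 fold change of −0.36 (SE 0.34) did not pass (edgeR adjusted p = 0.563). KRT5, the type II partner of KRT14 in basal cells, had 0 counts in all 6 libraries. A count of 0 allows up to 3 counts, or 0.195 to 0.224 CPM in these libraries. The word basal thus rests on KRT14, KRT15 and KRT17, without KRT5.

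KRT16 (ENSG00000186832, chromosome 17, 41609778 to 41615899, minus strand) and the KRT6 genes, which usually accompany KRT17 in wounded skin, are not among the 10. KRT16 had 5, 7 and 9 counts in KD1, KD2 and KD3, against 17, 26 and 17 in the controls. Every HHEX shRNA library was below every control, and the log2 fold change of −1.47 (SE 0.46) did not pass (edgeR adjusted p = 0.149). KRT6A and KRT6C had 0 counts in every library and KRT6B had 1 count, in control2.

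KRT7 (ENSG00000135480, chromosome 12, 52232520 to 52252186, plus strand), a type II keratin of glandular and ductal epithelium, had 735, 658 and 466 CPM in KD1, KD2 and KD3, against 370, 439 and 409 CPM in the controls. All 3 HHEX shRNA libraries lay above all controls, KD3 by the least. The means were 620 ± 138 CPM in the HHEX shRNA group and 406 ± 34.4 CPM in the control group (SD, n = 3 each), a difference of 0.61 on the log2 scale (SE 0.19, 95% confidence interval 0.18 to 1.04) that did not pass (edgeR adjusted p = 0.146). It passed without KD3 (0.80, edgeR adjusted p = 0.000284), as did 31.6% of all genes then tested. With DESeq2 over all 6 libraries KRT7 also passed (0.63, adjusted p = 0.0399), as did 6.04% of the tested genes, and likewise with edgeR without a filter on low counts (edgeR adjusted p = 0.00852), as did 4.80% of the genes then tested. Part of KRT7 overlaps its antisense gene KRT7-AS, with 282 exonic bases or 6.89% of KRT7 in common, and no source says that counting took account of strand. KRT7-AS stood at 11.1, 10.5 and 5.64 CPM in the HHEX shRNA libraries, against 5.23, 7.57 and 12.8 CPM in the controls.

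KRT8 (ENSG00000170421, chromosome 12, 52897187 to 52949954, minus strand), the type II keratin of simple epithelium, had 1015, 900 and 487 CPM in KD1, KD2 and KD3, against 618, 662 and 445 CPM in the controls. KD1 and KD2 lay above every control, while KD3 fell within the control range. The means were 801 ± 278 CPM in the HHEX shRNA group and 575 ± 115 CPM in the control group (SD, n = 3 each), and the log2 difference, 0.48 (SE 0.28, 95% confidence interval −0.15 to 1.11), did not pass (edgeR adjusted p = 0.349). Without KD3 it was 0.76 and passed (edgeR adjusted p = 0.00326), as did 31.6% of all genes then tested.

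KRT18 (ENSG00000111057, chromosome 12, 52948871 to 52952901, plus strand), the type I partner of KRT8, had 393, 342 and 360 CPM in KD1, KD2 and KD3, against 381, 455 and 325 CPM in the controls. All 3 HHEX shRNA libraries fell within the control range. The log2 fold change was −0.08 (SE 0.16, 95% confidence interval −0.44 to 0.27, edgeR adjusted p = 0.786), an interval that leaves out a change as large as that of KRT17. KRT8 and KRT18 lie on opposite strands and have 525 exonic bases in common, or 7.63% of KRT8 and 16.3% of KRT18, so that reads there are uncertain without strand.

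KRT19, a keratin of ducts and of thyroid follicular tumours, was barely detected. It had 1, 3 and 5 counts in KD1, KD2 and KD3, and 0 counts in each control. It was too low to be tested, and the simple keratins of this line are thus KRT7, KRT8 and KRT18.

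KRT80 (ENSG00000167767, chromosome 12, 52168996 to 52192000, minus strand), a type II keratin of cell margins in many epithelia, had 207, 201 and 259 CPM in KD1, KD2 and KD3, against 175, 171 and 184 CPM in the controls. All 3 HHEX shRNA libraries lay above all controls, with KD3 the highest, unlike KRT7 and KRT8, where KD3 was the lowest of the group. The means were 222 ± 31.7 CPM in the HHEX shRNA group and 177 ± 6.51 CPM in the control group (SD, n = 3 each), a difference of 0.33 on the log2 scale (SE 0.14, 95% confidence interval 0.02 to 0.64) that did not pass (edgeR adjusted p = 0.218). KRT81, the hair keratin, had 1, 0 and 2 counts in the HHEX shRNA libraries, against 1, 2 and 3 in the controls, and was not tested.

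**Figure D2:**
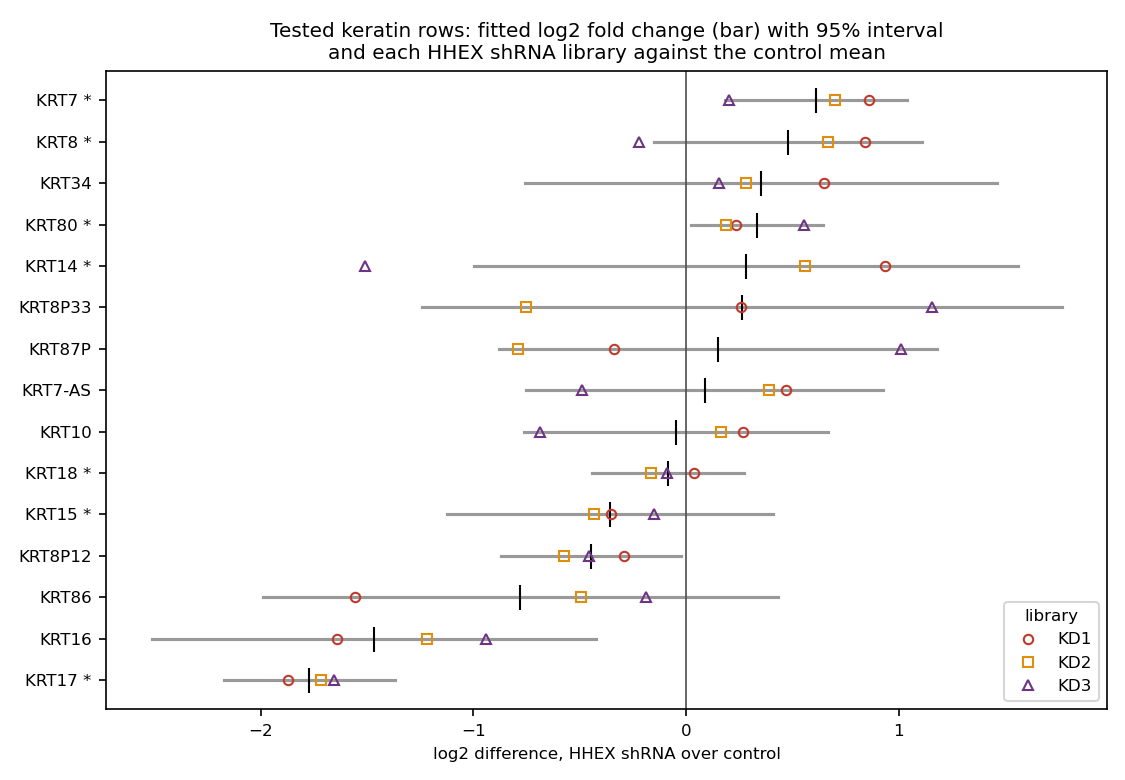
Log2 difference of HHEX shRNA over control for the 15 tested keratin rows, with the edgeR fold change as a bar, its 95% confidence interval as a line, and each HHEX shRNA library against the control mean as a symbol. Stars mark the 7 tested genes among the 10. The symbols of KRT17 lie together between −1.87 and −1.65, whereas those of KRT14 run from −1.51 in KD3 to 0.93 in KD1.

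By library, KD1 and KD2 had the same 4 of 7 tested keratins above every control, KRT7, KRT8, KRT14 and KRT80, while 34.2% and 34.5% of all tested genes lay above every control in these libraries. KRT17 and KRT15 lay below every control in both, with 36.9% and 37.5% of all genes. In KD3, KRT7 and KRT80 lay above, with 30.0% of all genes, and KRT17 and KRT14 below, with 31.6%. KRT17 on the low side and KRT7 and KRT80 on the high side were common to the 3 libraries.

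Levels of different keratins were compared per kilobase of the union of annotated exons. In the HHEX shRNA libraries KRT7 led with 151 ± 33.8 CPM per kilobase, ahead of KRT8 with 116 ± 40.4 and KRT18 with 113 ± 8.02 (SD, n = 3). In the controls KRT18 led with 120 ± 20.3 CPM per kilobase, ahead of KRT7 with 99.2 ± 8.41 and KRT8 with 83.6 ± 16.7. Neighbours among these 3 lay within their spread of each other in either group, and over the length of the longest coding transcript their order in the controls was KRT8, KRT7 and KRT18. KRT80 came next with 51.1 ± 7.28 CPM per kilobase in the HHEX shRNA libraries and 40.6 ± 1.5 in the controls, apart from its neighbours on either side.

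Below them came the basal keratins, whose order by group mean differed between the groups, although KD3 kept the order of the controls. KRT14 had 5.08 ± 3.32 CPM per kilobase and KRT17 3.09 ± 0.239 in the HHEX shRNA libraries, where the spread of KRT14 covers KRT17. In the controls KRT17 had 10.5 ± 1.71 CPM per kilobase and KRT14 4.19 ± 1.16, which do not overlap. KRT15 stood at 0.266 ± 0.0293 CPM per kilobase in the HHEX shRNA libraries and 0.342 ± 0.0898 in the controls. KRT81, KRT19 and KRT5 were at or near 0.

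Ratios within a library do not depend on how libraries are scaled. For every 1000 counts of KRT8 there were 8.70, 11 and 21.2 counts of KRT17 in KD1, KD2 and KD3, against 43.9, 56.8 and 76.7 in the controls. All HHEX shRNA libraries lie below all controls, and KD3, with its lower KRT8, lies nearest to them. The mean log2 ratio was −6.29 ± 0.664 in the HHEX shRNA group and −4.11 ± 0.402 in the control group (SD, n = 3 each). The difference of −2.18 had an exact two-sided permutation p = 0.1, the smallest that 20 arrangements of 3 against 3 libraries allow. KRT17 was known from earlier results of these data to have fallen when the ratio was chosen. The p-value therefore describes the ratio and is no independent support.

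The other simple keratins and KRT80 gave the same picture as denominators. All these ratios have KRT17 as numerator, so they are not separate lines of support. Per 1000 counts of KRT18 there were 22.5, 28.8 and 28.6 counts of KRT17 in KD1, KD2 and KD3, against 71.2, 82.7 and 105 in the controls. Per 1000 counts of KRT7 there were 12, 15 and 22.1 in the HHEX shRNA libraries, against 73.3, 85.8 and 83.5 in the controls. Per 1000 counts of KRT80 there were 42.6, 49.1 and 39.8, against 155, 221 and 186. In none of these ratios do the groups overlap.

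Taking KRT5, KRT14, KRT15 and KRT17 together, the basal keratins made up 1.20%, 1.19% and 0.981% of the counts of the 10 keratins in KD1, KD2 and KD3, against 2.51%, 2.94% and 3.03% in the controls. The sum of the 10 keratins was 2379, 2127 and 1587 CPM in the HHEX shRNA libraries, against 1584, 1779 and 1405 CPM in the controls. The basal share separates the groups, but it contains KRT17, whose own groups do not overlap. It is therefore no further result about the basal keratins, since the groups overlap for KRT14 and KRT15. The summed level of KD3 falls among the controls. Counts of KRT14 per 1000 of KRT8 were 17.6, 15.2 and 6.52 in the HHEX shRNA libraries, against 16.9, 17.5 and 14.8 in the controls. KRT17 gave 31.0%, 39.0% and 66.1% of the basal counts in KD1, KD2 and KD3, against 68.1%, 71.9% and 80.2% in the controls.

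Ratios between KRT8, KRT7 and KRT18 RNA also differed among the libraries. KRT8 stood at 2.58, 2.63 and 1.35 times KRT18 in KD1, KD2 and KD3, against 1.62, 1.46 and 1.37 times in the controls. KRT7 stood at 1.87, 1.92 and 1.29 times KRT18, against 0.971, 0.964 and 1.26 times. For both ratios KD1 and KD2 are high, and KD3 lies at the edge of the control range, just below it for KRT8 and just above it for KRT7. KRT17 stood at 0.494, 0.719 and 3.24 times KRT14 in the HHEX shRNA libraries, against 2.59, 3.24 and 5.2 times in the controls, so that this ratio in KD3 lay among the controls.

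**Figure D3:**
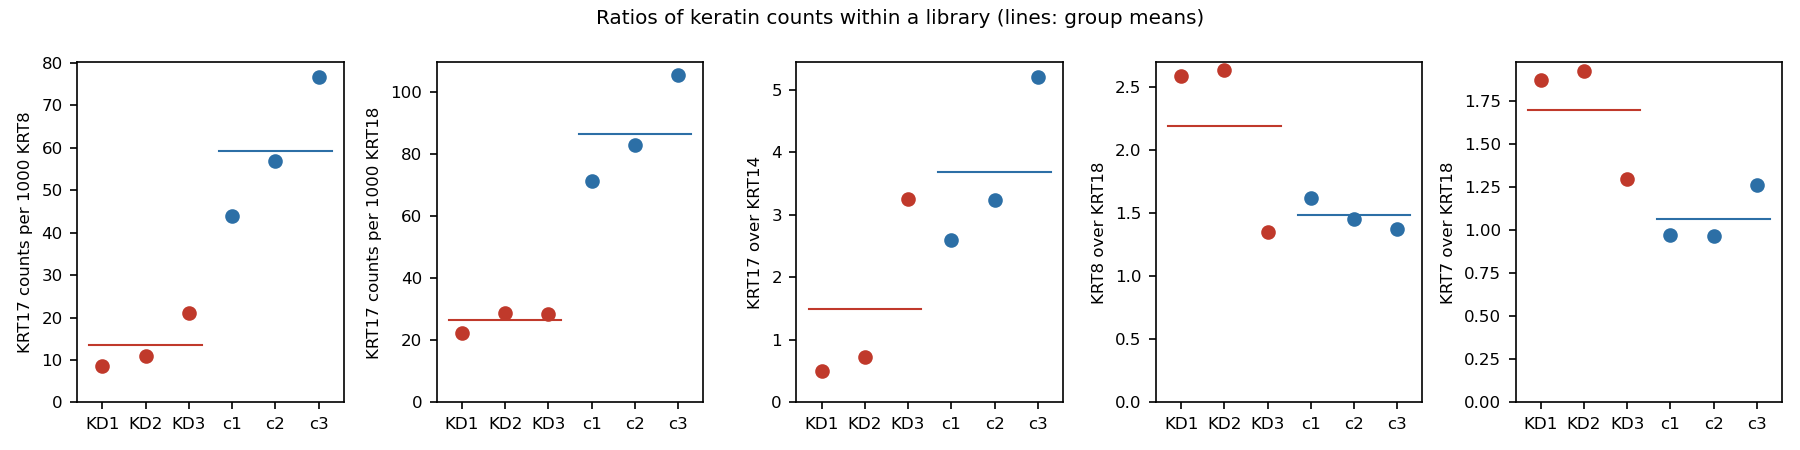
Ratios of keratin counts within each library, on linear axes from 0, with HHEX shRNA libraries (KD1 to KD3) in red, control libraries (c1 to c3) in blue and group means as lines. KRT17 per 1000 KRT8 is 8.70 to 21.2 in the HHEX shRNA libraries and 43.9 to 76.7 in the controls. KRT17 over KRT14 and KRT8 over KRT18 set KD1 and KD2 apart, with KD3 at or within the control values.

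The table holds 204 rows named as keratins, of which 55 are keratin genes, 147 pseudogenes and 2 antisense genes. Any count was found in 24 of the genes, and 11 of them were tested. Of all 15 tested keratin rows KRT17 alone was called. KRT10, a keratin of suprabasal skin, had 6.00, 5.57 and 3.03 CPM in the HHEX shRNA libraries, against 3.96, 5.84 and 5.27 CPM in the controls (log2 fold change −0.05, edgeR adjusted p = 0.943). KRT87P, a hair keratin pseudogene that has 32 exonic bases in common with KRT7, had 6.20, 4.5 and 16 CPM in the HHEX shRNA libraries, against 9.64, 6.04 and 8.39 CPM in the controls (0.15, edgeR adjusted p = 0.872). KRT8P12, a copy of KRT8, had 9.57, 7.86 and 8.53 CPM in the HHEX shRNA libraries, against 10.8, 13.1 and 11.5 CPM in the controls (−0.45, edgeR adjusted p = 0.22). It lay below every control while KRT8 did not. All KRT8 pseudogenes together came to between 1.15% and 3.19% of the KRT8 count, and those of KRT18 to between 0.088% and 0.438% of the KRT18 count.

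The genes whose control-centred log2 profile over the 6 libraries was most like that of KRT17, by root mean square difference among 10673 genes of at least 5 CPM, were HIST1H2AC (0.24), BST2 (0.24), IFI27 (0.25), ISG15 (0.28) and TM7SF2 (0.29). HIST1H2AC, a histone H2A gene whose near-identical relatives may share its reads, had 17.8, 20.6 and 32.5 CPM in KD1, KD2 and KD3, against 65.8, 75.9 and 72.5 CPM in the controls. BST2, a membrane protein induced by interferon, had 11.3, 10.3 and 13.3 CPM in the HHEX shRNA libraries, against 26.3, 37.8 and 31.9 CPM in the controls. Of the 5 other members of at least 5 CPM, KRT18 was the closest and ranked 4081, and KRT14 ranked 8879. KRT16 was under 5 CPM and was not compared. For KRT8 the nearest were PTTG1 (0.07), SH3BGRL3 (0.07), CDC42EP4 (0.08), UBR7 (0.10) and VOPP1 (0.10). PTTG1, the securin of mitosis, had 173, 142 and 75.1 CPM in the HHEX shRNA libraries, against 99.5, 114 and 67.9 CPM in the controls. KRT7 ranked 628 from KRT8. Nearness of profiles over 6 libraries is a description and carries no test.

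Keratin filaments end at desmosomes, which join cells, and at hemidesmosomes, which join cells to the matrix, and both groups were read from lists. Over all 14280 tested genes 20.6% had an unadjusted edgeR p under 0.05 and 6.04% passed with DESeq2, and the counts of each list are to be read against these shares. Of 14 desmosome genes 9 were tested, 0 passed edgeR's test (1 at an unadjusted p under 0.05, against 20.6% of all genes, and 0 by DESeq2), 3 had a positive and 6 a negative log2 fold change, and the median was −0.16. PKP2, a plaque protein, had 43.3, 46.3 and 58.3 CPM in the HHEX shRNA libraries, against 70.1, 64.6 and 64.7 CPM in the controls (log2 fold change −0.43, edgeR adjusted p = 0.162). DSP, the desmoplakin that binds keratins directly, had 68.6, 82.3 and 98.6 CPM in the HHEX shRNA libraries, against 76.1, 50.3 and 72.4 CPM in the controls (0.33, edgeR adjusted p = 0.359). PKP3 and PKP4, further plaque proteins, lay at −0.33 and −0.15.

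Of 10 keratin linkers and hemidesmosome genes all were tested, 0 passed edgeR's test (4 at an unadjusted p under 0.05, against 20.6% of all genes) and 2, ITGB4 and PPL, passed with DESeq2, against 6.04%. ITGB4, the integrin chain of hemidesmosomes, had 151, 146 and 154 CPM in KD1, KD2 and KD3, against 323, 270 and 239 CPM in the controls (log2 fold change −0.88, SE 0.14, edgeR adjusted p = 0.0584). PPL, the linker periplakin, had 4.72, 7.21 and 9.23 CPM in the HHEX shRNA libraries, against 30.0, 20.2 and 16.9 CPM in the controls (−1.66, SE 0.30, edgeR adjusted p = 0.0768). For both genes all HHEX shRNA libraries lay below all controls, KD3 included. COL17A1, the hemidesmosome collagen, had 20.5, 20.2 and 6.20 CPM, against 7.77, 8.36 and 3.58 CPM in the controls (1.25, edgeR adjusted p = 0.21), with KD3 within the control range. EPPK1, the keratin binder epiplakin, lay at 0.91 (edgeR adjusted p = 0.24).

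Keratin modifiers and turnover genes held the 1 gene that passed in these lists. HSPA8, a chaperone of the heat shock family, had 2868, 2720.1 and 2098 CPM in KD1, KD2 and KD3, against 1105, 1102 and 1012 CPM in the controls, and rose by 1.26 (SE 0.18, edgeR adjusted p = 0.0456). All 12 genes of the list were tested, 9 with a positive and 3 with a negative log2 fold change and a median of 0.40. At an unadjusted p under 0.05 there were 6, against 20.6% of all genes, and 3 passed with DESeq2, against 6.04%, DNAJB6 and HSPA8 among them. DNAJB6, a co-chaperone that binds KRT18, lay at 0.46 (edgeR adjusted p = 0.12). SFN, the 14-3-3 protein that binds KRT17 in mouse keratinocytes, lay at 0.58 (edgeR adjusted p = 0.17), with KD3 within the control range. SFN is also on the list of squamous differentiation genes and is counted in both lists.

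Other intermediate filaments were called in 0 of 7 tested genes of 12 (2 at an unadjusted p under 0.05, near the 20.6% of all genes, and 0 by DESeq2), with a median of 0.49. VIM, the filament protein vimentin, had 976, 882 and 1002 CPM in the HHEX shRNA libraries, against 957, 1195 and 801 CPM in the controls (log2 fold change −0.05, edgeR adjusted p = 0.90). LMNB1, a lamin of the nuclear envelope, had 275, 253 and 53.4 CPM, against 79.1, 84.2 and 72.2 CPM in the controls (1.30, edgeR adjusted p = 0.222), so that KD1 and KD2 lay far above and KD3 below the controls. LMNB2, a second B-type lamin, lay at 0.63 and SYNM, synemin, at 0.49. For both genes KD1 and KD2 lay above every control and KD3 below every control. NES, nestin, lay at 1.41 (edgeR adjusted p = 0.154) from under 2 CPM in every library.

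Of 16 squamous differentiation genes 8, IVL and the loricrin gene LOR among them, had 0 counts in every library, and 6 were tested. The list summed to 166, 162 and 113 CPM in KD1, KD2 and KD3, against 94.7 to 106 CPM in the controls, most of it from SFN and FLG. Of these 0 passed edgeR's test (3 at an unadjusted p under 0.05, against 20.6% of all genes), 1 passed with DESeq2, against 6.04%, and the median was 0.23. SBSN, suprabasin, had 9.37, 8.14 and 3.95 CPM in the HHEX shRNA libraries, against 1.57, 1.73 and 2.08 CPM in the controls, with every HHEX shRNA library above (log2 fold change 1.99, SE 0.37, edgeR adjusted p = 0.0768). SPRR2A, a cornified envelope protein, lay at −2.11 (edgeR adjusted p = 0.189) and FLG, filaggrin, at 0.58 (edgeR adjusted p = 0.399).

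Of 19 epithelial transcription factors 9 were tested, and 0 passed edgeR's test (2 at an unadjusted p under 0.05, near the 20.6% of all genes, and 0 by DESeq2), with a median of −0.12. TFAP2C lay at 0.72 (edgeR adjusted p = 0.145) and SOX9 at 0.55 (edgeR adjusted p = 0.185), with KD3 within the control range for SOX9. KLF4, a factor of epithelial differentiation, had 29.2, 25.0 and 79.7 CPM, against 63.4, 87.2 and 61.5 CPM in the controls (−0.66, edgeR adjusted p = 0.406). ESRP1, an epithelial splicing regulator, had 0.539, 0.429 and 4.79 CPM in KD1, KD2 and KD3, against 6.35, 3.12 and 5.79 CPM in the controls (−1.40, edgeR adjusted p = 0.363). Of 15 genes listed as factors that act on KRT17, 12 were tested and 0 passed (3 at an unadjusted p under 0.05, near the 20.6% of all genes, and 0 by DESeq2), with a median of 0.21. FOS, a subunit of AP-1, had 6.94, 5.93 and 175 CPM in KD1, KD2 and KD3, against 3.44, 5.84 and 5.40 CPM in the controls (3.67, edgeR adjusted p = 0.22), a difference carried by KD3. JUN, another AP-1 subunit, had 82.9, 82.5 and 165 CPM in KD1, KD2 and KD3, against 53.3, 79.3 and 65.4 CPM in the controls (0.74). NFKB1 lay at 0.31 and HNRNPK, an RNA-binding protein, at 0.26.

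**Figure D4:**
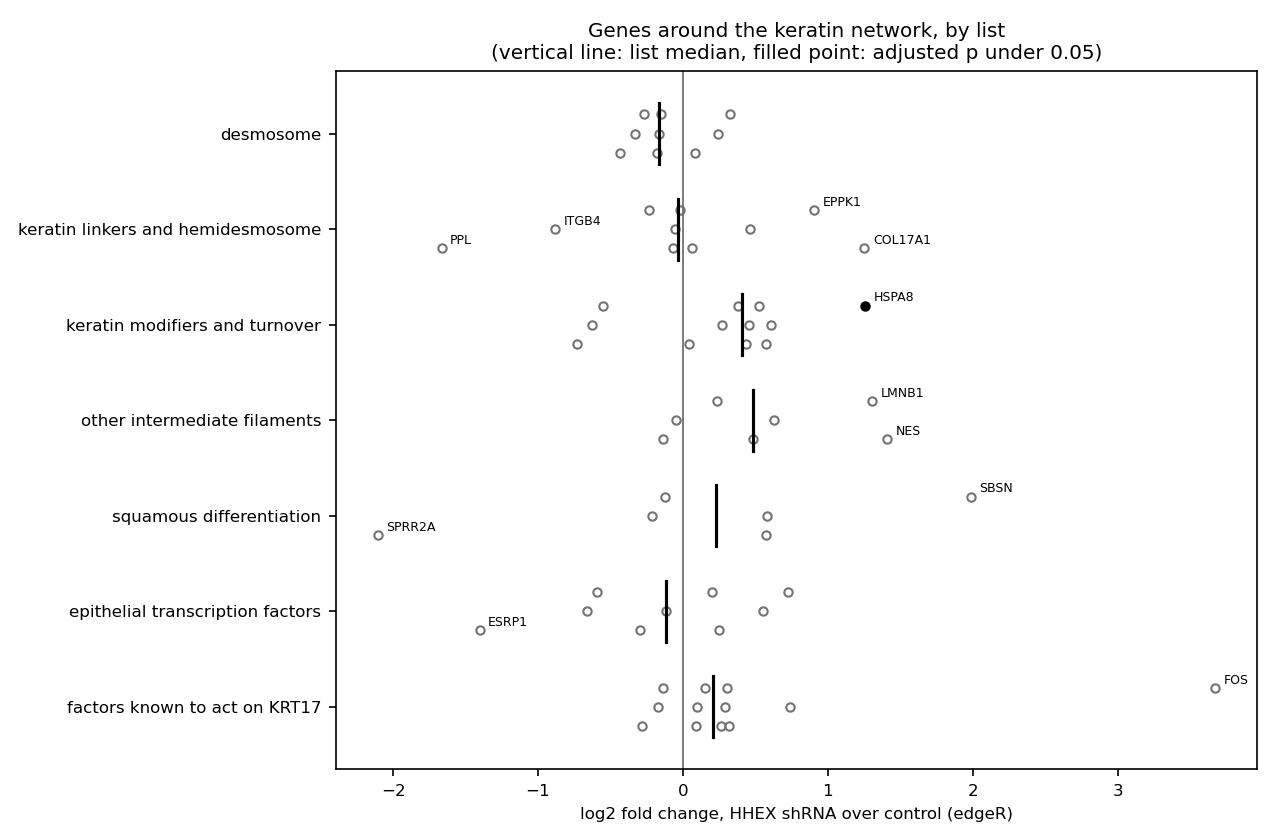
Log2 fold change of HHEX shRNA over control by edgeR for the tested genes of 7 lists around the keratin network, with list medians as vertical lines and genes past the test as filled points. Each list has 1 point per gene, and SFN, on both the keratin modifiers and the squamous list, is drawn in each. HSPA8 at 1.26 is the filled point, and the list medians lie between −0.16 and 0.49.

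Markers of other cells were read beside these results, without a test of their part in them. NKX2-1, PAX8 and FOXE1, the thyroid transcription factors, were present, with NKX2-1 at 38.0, 34.9 and 18.0 CPM in the HHEX shRNA libraries, against 26.8, 50.4 and 34.5 CPM in the controls. TG and TSHR, which mark differentiated follicular cells, were under 0.3 CPM in every library. CDH1, the epithelial cadherin, was under 0.1 CPM, and CDH2, the neural cadherin, stood at 102, 104 and 104 CPM in the HHEX shRNA libraries, against 102, 84.9 and 96.4 CPM in the controls. EPCAM, an epithelial membrane protein, had 0.202, 0.5 and 1.69 CPM in KD1, KD2 and KD3, against 1.49, 1.33 and 2.28 CPM in the controls (−1.09, edgeR adjusted p = 0.37). It was thus low throughout, with KD3 within the control range. CLDN4, also an epithelial membrane protein, had 4.52, 3.43 and 7.19 CPM in KD1, KD2 and KD3, against 7.25, 9.36 and 8.52 CPM in the controls (−0.73, edgeR adjusted p = 0.213). The 5 keratinocyte markers summed to 18.2, 14.1 and 3.95 CPM in KD1, KD2 and KD3, against 10.7, 12.3 and 7.35 CPM in the controls. Most of this was KRT14, since KRT5 and IVL were at 0, and DSG3 and TP63 stayed under 1 CPM. The 5 leukocyte markers summed to at most 0.916 CPM in the HHEX shRNA libraries and 0.224 CPM in the controls. Of 8 mesenchymal markers 4 were tested and 0 passed, with sums of 1033 to 1119 CPM in the HHEX shRNA libraries and 939 to 1335 CPM in the controls. The 4 endothelial markers summed to 14.9, 14.0 and 5.08 CPM in KD1, KD2 and KD3, and to 15 to 16.2 CPM in the controls.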

How the data were processed

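RNA was isolated with Trizol, captured as mRNA and made into libraries with TIANSeq kits, per the labels' protocols. No source used here gives strandedness, aligner, counter or build. Raw counts per gene were deposited by the authors, beside 6 columns in another unit that were not used. Coordinates of 203 of 204 keratin rows equal those of GENCODE release 29 (GRCh38). Columns name the group and a running number that the sample titles do not carry. The 998 unnamed loci, 0.239% to 0.298% of counts, stayed out of library sizes and tests.

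Counts were filtered with filterByExpr, scaled by TMM and compared by edgeR 4.0.16 (R 4.3.3) with glmQLFit (robust) and glmQLFTest, without covariates. Benjamini-Hochberg adjustment ran over 14280 genes, with a threshold of 0.05. CPM use TMM factors, and log2 CPM a prior count of 2. Reads carry no molecular identifiers, so Poisson intervals and the floor of 3 counts cover counting error only. Tested on simulated counts, the fit recovered 45% of genes changed 2-fold and 81% of those changed 4-fold, with 15 false calls among 14080 unchanged genes. As a share of all calls in that simulation, the false calls exceeded the threshold of 0.05. Simulated libraries were drawn independently, without a library set apart as KD3 is and without a shared source. These shares may therefore not hold for the real libraries. DESeq2 1.42.0 and limma 3.58.1 (limma-trend) served as alternatives, beside other scalings, filters and leaving out each library. Genes named are HHEX, the 10 keratins, other keratin rows called or over 5 CPM, up to 4 tested genes of each list by smallest p, and the 5 nearest profiles to KRT17 and KRT8. KRT16, KRT6A, KRT6B, KRT6C and the markers named at low levels fall outside that rule and were chosen after their values were seen. VIM falls under the rule through the mesenchymal list, though it is described with the other intermediate filaments. Some genes of the lists are not reported here by name. The members and lists were chosen with earlier results of these data known.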

Additional observations from a re-analysis of the deposited data

How the results depend on the processing

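KRT17 was lower in all 14 alternatives. In the 8 that changed scaling, filter or tool its log2 fold change was −1.84 to −1.75 and passed in each (adjusted p = 1.24e-13 to 0.0214). Leaving out 1 library gave −1.87 to −1.65, with edgeR adjusted p = 1.41e-05 to 0.158, and passed only without KD3. The log2 ratio of KRT17 to KRT8 kept its sign in all 8 alternatives, at −2.55 to −1.91 when a library was left out and −2.11 with pseudogene counts added.

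The count of genes past the threshold was 26 over all libraries, 862 with DESeq2, 1359 without a filter on low counts and 0 to 4675 when a library was left out. Without KD1, KD2, control2 and control3 edgeR called 0 genes (1789, 1625, 1947 and 1806 at an unadjusted p under 0.05). Among the 10 keratins 1 was called over all libraries, 2 without the filter and 2 with DESeq2 (KRT17 and KRT7 in both), and 0 to 4 when a library was left out. The 4 were KRT7, KRT8, KRT14 and KRT17, without KD3, where 31.6% of all genes tested passed. Over all genes tested 0.182% passed in the main fit, 4.80% without the filter and 6.04% with DESeq2. Leaving out a library gave −0.18 to 0.75 for KRT14 and −0.20 to 0.066 for KRT18. KRT14 turned to −0.18 without KD1 and to −0.0065 with limma-trend, and KRT18 to 0.066 without control2, in each case without passing. The cause was not tested. KRT15 and KRT80 passed under no alternative. No paired analysis was possible because the count columns do not carry the replicate numbers of the sample titles. KRT19 and KRT81 could be fitted only without the filter and did not pass (edgeR adjusted p = 0.236 and 0.809), with at most 5 counts in a library, and KRT5 had 0 counts.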
